A study of Homo sapiens with 4 samples.

Results

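A chosen set of 6 long noncoding RNA (lncRNA) genes of the HOXA cluster was followed in RNA-seq of oxaliplatin-resistant and wild-type HepG2 cells. The 6 genes were *HOTAIRM1*, *HOXA-AS2*, *HOXA-AS3*, *HOXA10-AS*, *HOXA11-AS* and *HOTTIP*. Their transcripts were taken by gene name in GENCODE release 29, and they held 39 of the 106179 transcripts in the deposited table, which are all 39 that this release annotates for them. HepG2 is an established human liver cancer line, which the labels class as hepatocellular carcinoma, and oxaliplatin is a platinum compound that binds DNA. The study asked which long intergenic noncoding RNAs differ between the groups. The groups were 2 libraries of HepG2 cells labelled as resistant to oxaliplatin and 2 libraries of wild-type HepG2 cells, all from total RNA. Both groups were labelled as receiving no treatment, and neither the dose used in selection nor whether the resistant cells are 1 clone is given in the sources used here. The labels do not say whether a group's libraries were grown separately, and the p-values below reflect library-to-library spread alone, possibly technical.

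The resistant libraries held 43473826 and 44063444 estimated counts and the wild-type libraries 38113398 and 34898860. The table holds 123 of the 83101 annotated protein-coding transcripts, so a count for a coding gene is almost always that of its noncoding transcripts, such as retained introns. The liver label was checked against 18 hepatocyte genes, of which 11 had transcripts in the table. Their summed counts were 10 and 78 in resistant libraries and 11 and 11 in wild-type libraries, and 8 of them, among them *AFP*, *TTR*, *SERPINA1* and *TF*, were at 0 in all 4 libraries. The table's transcripts of *ALB*, the albumin gene, had 0 counts in both resistant libraries and 8 and 0 counts in the wild-type ones. Of 9 fibroblast, endothelial and blood genes, 7 were in the table, with summed counts of 119 and 52 in resistant libraries and 75 and 89 in wild-type libraries. Most of these were on 1 gene, *COL1A1*, with 87 and 34 counts in resistant libraries and 62 and 78 in wild-type libraries. *PTPRC* had 27 counts in resistant replicate 1 alone. Both were named after their values were seen. Of the 11, only *FGG*, a fibrinogen gene named after its values were seen, passed the low-count filter. It had 8 and 74 counts in resistant libraries and 3 and 9 in wild-type libraries. Apart from *FGG*, the liver markers in the table were absent or near 0 among the transcripts counted here, in both groups. Their part in the results was not tested.

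HOX genes encode transcription factors that set position along the body axis, and they lie in clusters whose gene order follows the order in which they are used. The HOXA cluster also makes RNAs from the strand opposite the coding genes. Some of them act on the neighbouring genes: *HOTAIRM1* is induced by retinoic acid in myeloid cells, and *HOTTIP*, at the *HOXA13* end, binds WDR5 of the MLL histone methyltransferase complex. All 6 genes lie on the plus strand of chromosome 7 (GRCh38, GENCODE release 29), within 111.6 kb from 27095647 to 27207259, and the HOXA coding genes lie on the minus strand.

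The sequences shown first are those that separate the transcripts on which the results turn, in the 5′ to 3′ direction of the plus strand, from GENCODE release 29 on GRCh38. The leading *HOTAIRM1* transcript, ENST00000425358 (3 exons, 637 bases, chr7:27096233-27099966), and the second, ENST00000429611 (3 exons, 722 bases, chr7:27096124-27099966), share their last exon and the end of exon 1. Exon 2 of the first begins 24 bases earlier, and these bases are in capitals after the last 20 bases of exon 1.
ENST00000425358 junction: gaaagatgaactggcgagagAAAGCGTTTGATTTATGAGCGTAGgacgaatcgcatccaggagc
ENST00000429611 junction: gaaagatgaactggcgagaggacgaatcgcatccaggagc
The second transcript starts 109 bases further upstream, and its added bases are in capitals.
ENST00000429611 start: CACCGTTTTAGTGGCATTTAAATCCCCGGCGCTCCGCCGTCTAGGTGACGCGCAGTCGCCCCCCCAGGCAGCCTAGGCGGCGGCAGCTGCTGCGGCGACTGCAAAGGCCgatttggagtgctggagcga

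For *HOXA10-AS*, the stretch shown is the part of exon 1 of ENST00000523790 opposite the hairpin of *MIR196B*, a microRNA gene near *HOXA9* and *HOXA10* (chr7:27169480-27169563, 84 bases). Capitals mark the bases opposite the mature miR-196b-5p, whose own sequence (RefSeq, GRCh38.p14, minus strand) has its seed, bases 2 to 8, in capitals.
ENST00000523790 opposite MIR196B: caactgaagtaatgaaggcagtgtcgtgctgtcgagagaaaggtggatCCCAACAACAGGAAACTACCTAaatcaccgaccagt
hsa-miR-196b-5p: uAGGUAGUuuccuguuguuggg

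For *HOXA11-AS*, 2 transcripts join different first exons to the same second exon. The last 30 bases of exon 1 are in capitals and the first 30 of exon 2 in lower case, and only the first of the pair had no count in wild type.
ENST00000647851 junction: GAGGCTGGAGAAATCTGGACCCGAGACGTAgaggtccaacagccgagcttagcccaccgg
ENST00000522674 junction: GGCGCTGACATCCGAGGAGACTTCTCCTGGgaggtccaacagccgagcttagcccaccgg

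Together, the 6 genes had 2997 and 3551 counts in resistant libraries and 1673 and 2055 counts in wild-type libraries. CPM divides a count by the library's total after scaling by the trimmed mean of M-values (TMM). That total was over the genes kept for testing, or over the transcripts kept where single transcripts were tested. The 6 genes came to 88.4 ± 12.2 CPM in resistant cells and 66.0 ± 13.4 CPM in wild-type cells (SD, n = 2 libraries each), a 1.34-fold higher mean. *HOTAIRM1* made up 88.9% ± 0.484 of these counts in resistant cells and 83.6% ± 1.38 in wild-type cells. In bulk RNA, fewer cells expressing a gene and less RNA per cell cannot be told apart. The sum was mostly 1 gene, and the other 5 together had 323 and 407 counts in resistant libraries and 290 and 316 in wild-type libraries.

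None of the 6 genes had a Benjamini-Hochberg adjusted p under 0.05 in edgeR's quasi-likelihood test over all 13745 genes tested, which called 0 genes, or 0%. Without adjustment 1192 genes, or 8.67%, had a p under 0.05, and so had 1 of the 6, *HOXA10-AS*. limma-voom called 0 genes, while DESeq2 called 632, or 4.60%, and of the 6 again *HOXA10-AS*. In 4 of the 6 genes the libraries of the groups did not overlap (*HOTAIRM1* and *HOXA-AS3* higher in resistant cells, *HOXA10-AS* and *HOTTIP* lower), where this held for 43.0% of all tested genes, 22.5% higher and 20.5% lower. The log2 fold change, resistant over wild type, was above 0 in 3 of the 6 genes, against 50.8% of all tested genes. Its median over the 6 was 0.03, with *HOXA10-AS* at its fitted value or at its limit, against 0.01 over all tested genes. Of the 39 transcripts, 13 passed the low-count filter, and 7 of these had a log2 fold change above 0, against 51.1% of all tested transcripts. The groups did not overlap in 7 of the 13, with 5 higher and 2 lower in resistant cells, against 40.3% of all tested transcripts. Some of the 13 passed the filter only through the group where they were high, so neither count supports a difference.

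**Figure D1:**
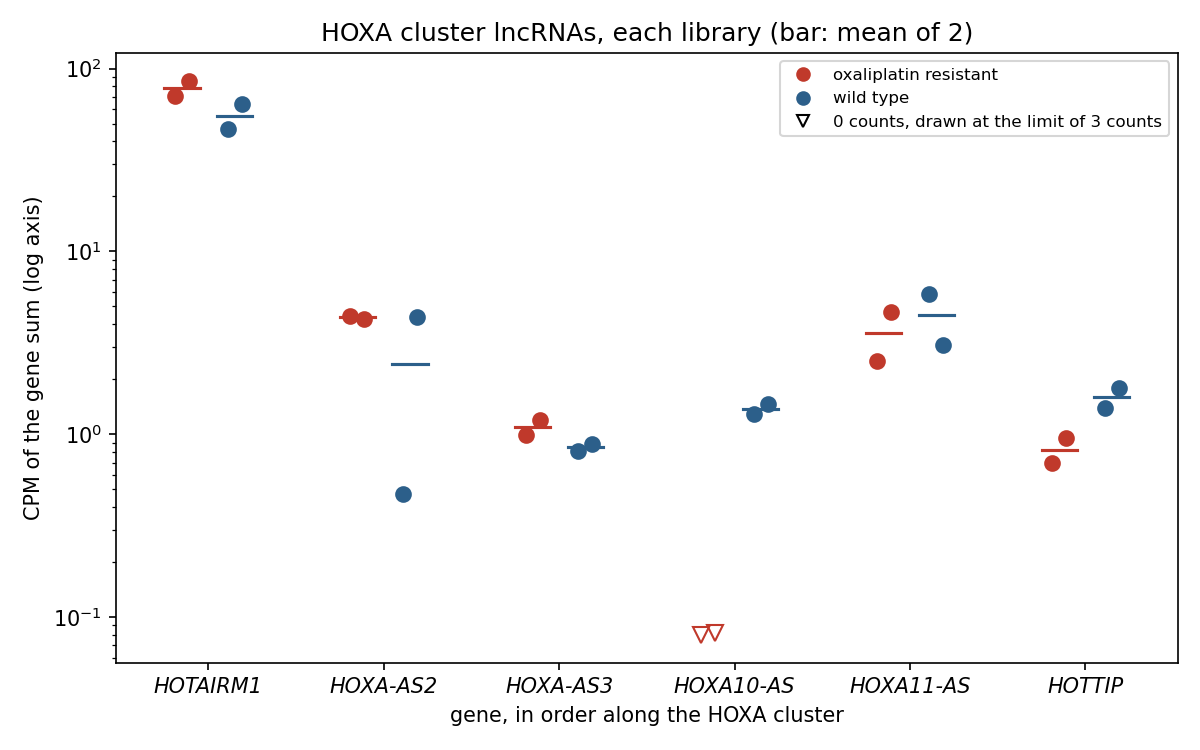
Level of each lncRNA gene followed here in CPM of the gene sum (log axis), in order along the cluster. There is 1 point per library and a bar at the mean of 2. Resistant libraries are left of wild-type libraries, open triangles stand for 0 counts drawn at the limit of 3 counts, and *HOXA10-AS* is the gene at 0 in both resistant libraries.

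*HOTAIRM1* (ENSG00000233429, chr7:27095647-27100265), which takes part in myeloid differentiation, had 71.2 and 85.9 CPM in resistant libraries and 46.8 and 63.9 CPM in wild-type libraries. Both resistant libraries were above both wild-type libraries, and the nearest libraries of the 2 groups were closer than the wild-type pair were to each other. Mean levels were 78.5 ± 10.4 CPM in resistant cells and 55.3 ± 12.1 CPM in wild-type cells (SD, n = 2), a log2 fold change of 0.51 ± 0.31 (SE). The difference did not pass the test (edgeR adjusted p = 0.729). The raw counts were 2674 and 3144 in resistant libraries and 1383 and 1739 in wild-type libraries, so counting error was small beside the spread between libraries.

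Of the 6 *HOTAIRM1* transcripts, 5 were counted, and the 3-exon transcript ENST00000425358 led in every library. It had 1974 and 2322 counts in resistant libraries and 896 and 1430 counts in wild-type libraries. This was 73.8% (95% Clopper-Pearson interval 72.1 to 75.5) and 73.9% (72.3 to 75.4) of the gene's counts in resistant libraries, against 64.8% (62.2 to 67.3) and 82.2% (80.4 to 84.0) in wild-type libraries. The wild-type pair thus differed by more than counting error and lay on either side of the resistant pair, so no shift in transcript use between the groups was seen beyond the spread. ENST00000429611, which starts upstream and lacks the 24 capital bases, had 468 and 577 counts in resistant libraries and 325 and 209 in wild-type libraries. ENST00000428939, a 2-exon transcript that starts downstream, had 153 and 148 counts in resistant libraries and 79 and 64 in wild-type libraries. Named after its values were seen, ENST00000434063, which joins exon 1 directly to the last exon, had 1 and 41 counts in resistant libraries and 52 and 1 in wild-type libraries, so it varied more within each group than between them. Such intervals cover counting error only, and how reads were shared among overlapping transcripts is not known: every base of ENST00000425358 also lies in another *HOTAIRM1* transcript.

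**Figure D2:**
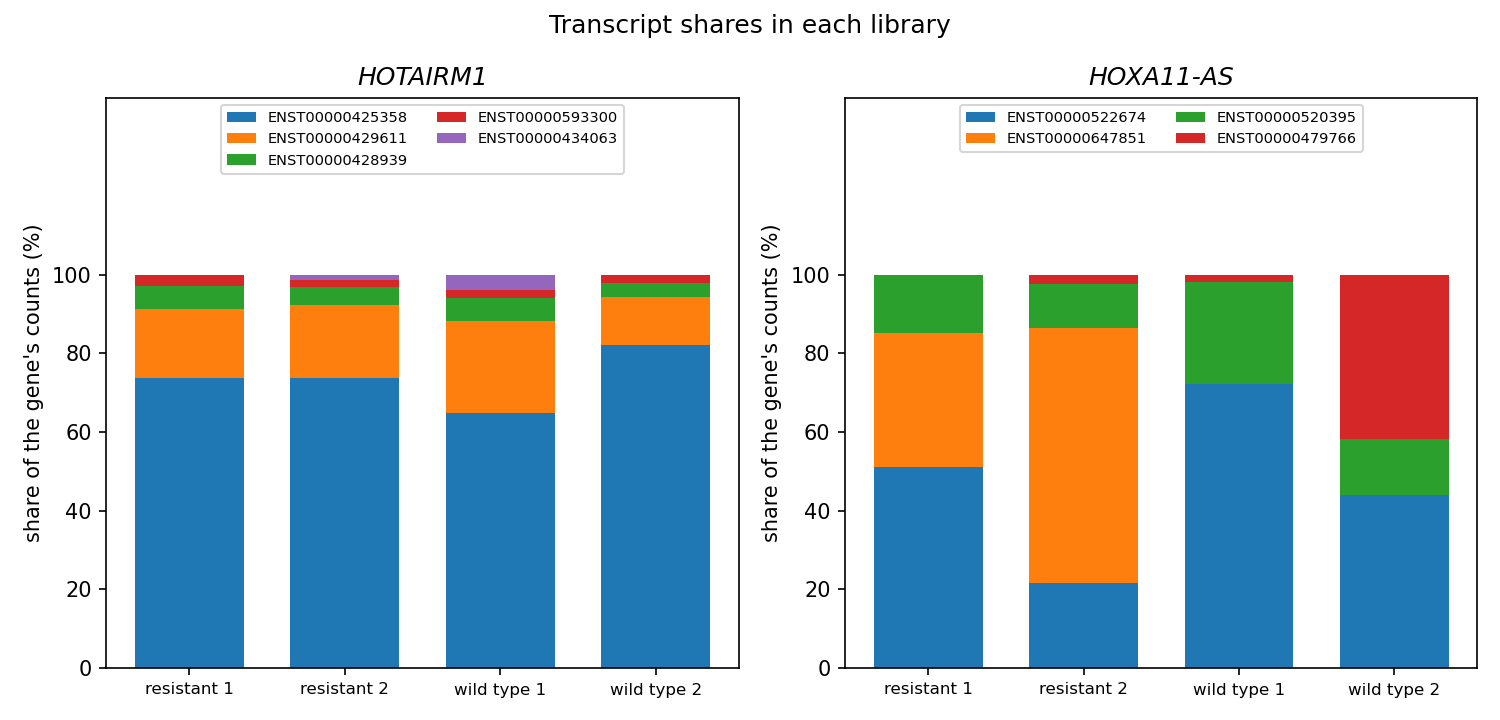
Share of each gene's counts (%) held by each counted transcript of *HOTAIRM1* and *HOXA11-AS*, stacked, in each library, resistant libraries left. In *HOTAIRM1* the resistant libraries, at 73.8% and 73.9% for the leading transcript, lie between the wild-type libraries at 64.8% and 82.2%. In *HOXA11-AS*, ENST00000647851 appears in the resistant libraries alone.

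By the rule of smallest root mean square difference in centred log2(CPM + 0.1) over the 4 libraries, among 13745 genes, the patterns nearest to *HOTAIRM1* were those of noncoding transcripts of *MIGA2* (difference 0.0200), *NSUN5* (0.0268) and *XPO6* (0.0335). *MIGA2*, for example, had 31.2 and 38.9 CPM in resistant libraries and 21.2 and 28.5 CPM in wild-type libraries. With only 4 libraries the likeness rests on few values, and none of the 3 passed the test (edgeR adjusted p = 0.756 for *MIGA2*, 0.720 for *NSUN5* and 0.729 for *XPO6*).

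*HOXA-AS2* (ENSG00000253552, chr7:27107777-27134302) overlaps *HOXA3*, a regulator of pharyngeal and hindbrain development. It had 166 and 157 counts in resistant libraries and 14 and 119 counts in wild-type libraries, or 4.42 and 4.29 CPM against 0.473 and 4.37 CPM. Wild-type replicate 2 lay between the resistant libraries, and wild-type replicate 1 stood apart from the other 3. The log2 fold change of 0.85 ± 1.16 (SE) did not pass the test (adjusted p = 0.892 in edgeR) and was set by that library: without wild-type replicate 1 it was -0.0046, and without wild-type replicate 2 it was 3.19. Of 11 annotated transcripts 4 were counted, and the low library lacked mainly ENST00000517635 (2 exons, 2455 bases, chr7:27115348-27123377), which had 133 and 149 counts in resistant libraries and 1 and 99 in wild-type libraries. The other 3, ENST00000517641, ENST00000593438 and ENST00000517550, had between 0 and 17 counts in any library. The exon junction of ENST00000517635, with the end of exon 1 in capitals, is shown because the difference within the wild-type pair rests on it.
ENST00000517635 junction: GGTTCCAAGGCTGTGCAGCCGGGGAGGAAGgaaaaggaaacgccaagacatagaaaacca

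*HOXA-AS3* (ENSG00000254369, chr7:27129977-27155928) spans *HOXA5* and *HOXA6* and runs into *HOXA7* on the opposite strand. It had 37 and 44 counts in resistant libraries and 24 and 24 counts in wild-type libraries, which is 0.985 and 1.20 CPM against 0.812 and 0.882 CPM. The groups did not overlap, but the log2 fold change of 0.37 ± 0.54 (SE) did not pass the test (edgeR adjusted p = 0.899). ENST00000518947 (3 exons, 3992 bases) held most counts in every library, with 24 and 40 in resistant libraries and 18 and 21 in wild-type libraries. ENST00000524304 had the rest, 13 and 4 in resistant libraries and 6 and 3 in wild-type libraries. Exons of genes on the opposite strand, *HOXA7* among them, cover 48.0% of the bases of ENST00000518947.

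*HOXA10-AS* (ENSG00000253187, chr7:27168619-27171915), opposite *HOXA9*, *HOXA10* and *MIR196B*, had 0 counts in both resistant libraries and 38 and 40 counts in wild-type libraries. The wild-type libraries were alike, at 1.28 and 1.47 CPM, and the resistant libraries were both below detection. A count of 0 allows a limit of 3 counts per library, or 0.0798 and 0.0820 CPM in the resistant libraries. Against this limit the mean was at least 17.0-fold lower in resistant cells. The bound covers the counting error of the 0 counts only. *HOXA10-AS* did not pass adjustment in edgeR (unadjusted p = 0.00527, adjusted p = 0.349). In DESeq2 the adjusted p was 0.0232. The gene passed the filter on low counts through its wild-type libraries alone, so it had to differ once tested. Of the 13745 genes tested, 83, or 0.604%, had 0 counts in both resistant libraries.

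All *HOXA10-AS* counts were on ENST00000523790 (2 exons, 1129 bases, chr7:27169094-27171765), which crosses the *MIR196B* hairpin shown above. The other 2 annotated transcripts were at 0 in all 4 libraries, and 1 of them, ENST00000519935, crosses the hairpin too. Exons on the opposite strand, of *HOXA9*, *HOXA10* and *MIR196B*, cover 880 of the 1129 bases of ENST00000523790, or 77.9%. The use of strand is not given, so reads from the covered bases cannot be told apart from reads of those genes. In the same libraries noncoding transcripts of *HOXA9*, a homeobox gene active in blood progenitors, had 257 and 238 counts in resistant cells and 358 and 291 in wild-type cells. Those of *HOXA10*, which patterns the uterus and limb, had 100 and 47 counts in resistant cells and 48 and 440 in wild-type cells. These counts are over whole transcripts rather than the covered bases. In CPM those of *HOXA9* were lower in resistant libraries, at 6.84 and 6.50 against 12.1 and 10.7, while those of *HOXA10* overlapped between the groups. Whether reads of these genes entered the *HOXA10-AS* counts was not tested.

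**Figure D3:**
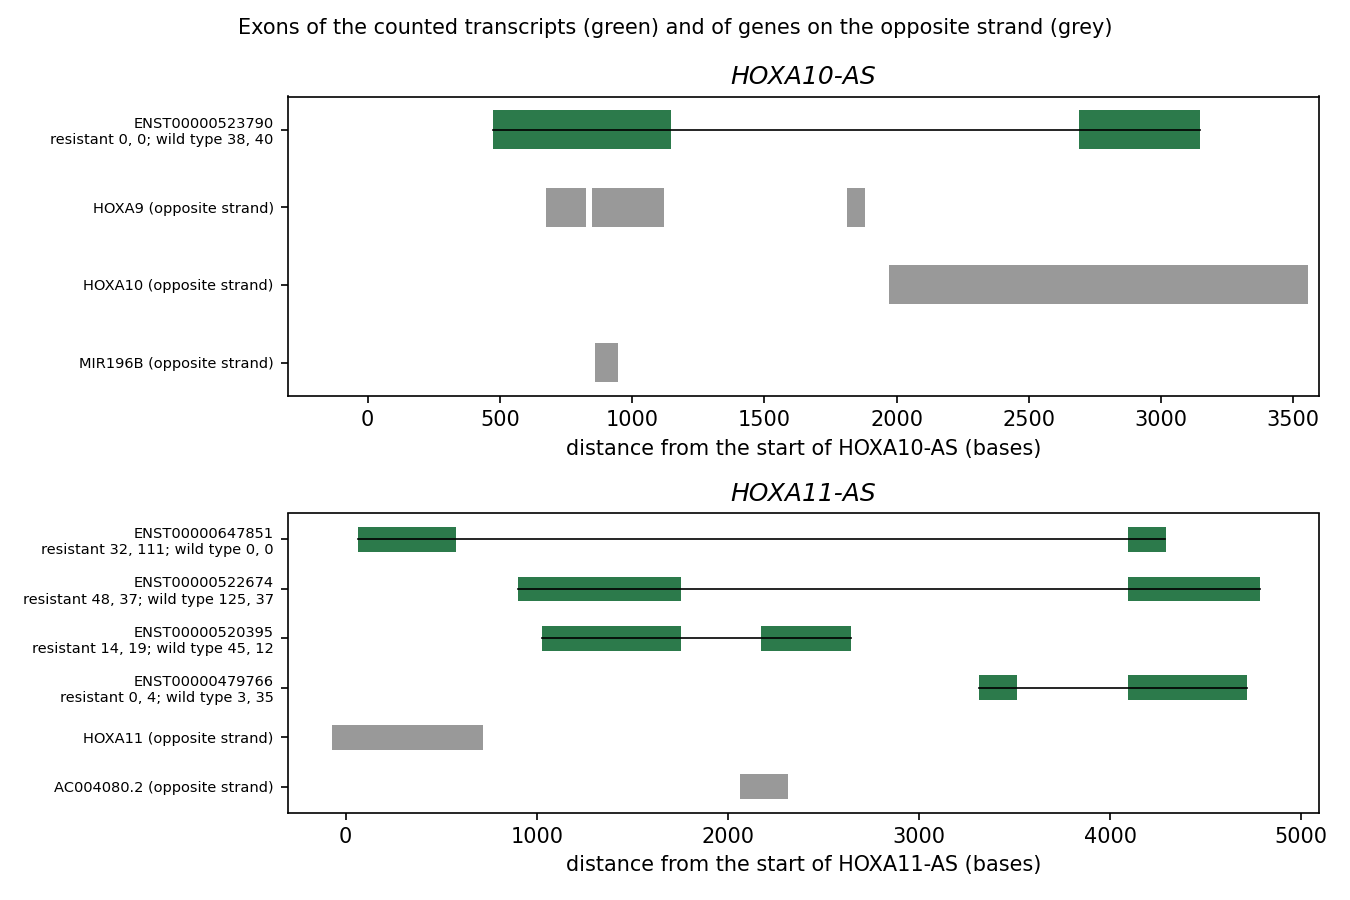
Exons (boxes) of the counted transcripts of *HOXA10-AS* and *HOXA11-AS* in green, with the counts of resistant and then wild-type libraries beside each name, and exons of any annotated transcript of the genes on the opposite strand in grey; the axis is distance from each gene's start in bases. The *HOXA10-AS* transcript with counts in wild type alone and the first exon of ENST00000647851, with counts in resistant cells alone, lie over opposite-strand exons.

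*HOXA11-AS* (ENSG00000240990, chr7:27184507-27189298) begins within *HOXA11*, a limb and uterus homeobox gene, on the opposite strand. The gene sum was 94 and 171 counts in resistant libraries and 173 and 84 counts in wild-type libraries, or 2.50 and 4.67 CPM against 5.85 and 3.09 CPM. The groups overlapped, and the log2 fold change of -0.32 ± 0.62 (SE) did not pass (adjusted p = 0.928 in edgeR). It came to 0.07 without resistant replicate 1 and to 0.22 without wild-type replicate 1, so its sign rested on single libraries.

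Below the sum, the counts of the transcripts differed, though how reads were shared among overlapping transcripts is not known. Every base of ENST00000647851 and of ENST00000522674 also lies in another *HOXA11-AS* transcript. ENST00000647851 (2 exons, 710 bases, chr7:27184572-27188797) had 32 and 111 counts in resistant libraries and 0 in both wild-type libraries. Its mean was at least 18.6-fold higher in resistant cells against the limit of 3 counts per library. The resistant libraries were unequal, at 0.704 and 2.53 CPM, against limits of 0.0833 and 0.0908 CPM in wild type. Resistant replicate 1 alone thus lay less far above the limits than the mean did. The bound covers the counting error of the 0 counts only. ENST00000647851 passed the low-count filter through its resistant libraries alone. It did not pass in edgeR over 42393 transcripts (unadjusted p = 0.0180, adjusted p = 0.410), where 0 transcripts, or 0%, were called and 3283, or 7.74%, had an unadjusted p under 0.05. In DESeq2, which called 2261 transcripts, or 5.33%, its adjusted p was 0.00847. Of the 42393 transcripts tested, 1072, or 2.53%, were at 0 in both wild-type libraries. Its first exon, 513 bases long, lies wholly over exons of *HOXA11* on the opposite strand, which come to 72.3% of the transcript, so these reads cannot be told apart from reads of *HOXA11*. No *HOXA11* transcript was in the table.

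The other counted *HOXA11-AS* transcripts together had 62 and 60 counts in resistant libraries and 173 and 84 in wild-type libraries. ENST00000522674 (2 exons, 1549 bases), with the other first exon shown above and no exon on the opposite strand, had 48 and 37 counts in resistant libraries and 125 and 37 in wild-type libraries. ENST00000520395 had 14 and 19 counts in resistant libraries and 45 and 12 in wild-type libraries. ENST00000479766 had 0 and 4 counts in resistant libraries and 3 and 35 in wild-type libraries. In each of these 3, 1 wild-type library stood above the other 3 libraries, and the raw counts of the groups overlapped. In CPM the groups did not overlap for ENST00000522674.

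*HOTTIP* (ENSG00000243766, chr7:27198575-27207259), the last of the lncRNAs followed here along the cluster, keeps the genes at the *HOXA13* end active through WDR5. It had 26 and 35 counts in resistant libraries and 41 and 49 counts in wild-type libraries, or 0.692 and 0.956 CPM against 1.39 and 1.80 CPM. Both resistant libraries were below both wild-type libraries, with a log2 fold change of -0.95 ± 0.55 (SE) that did not pass the test (edgeR adjusted p = 0.720). ENST00000472494 (2 exons, 2285 bases) held all counts except 16 in wild-type replicate 1, which were on ENST00000521028. That leading transcript alone had 26 and 35 counts in resistant libraries and 25 and 49 in wild-type libraries, so for it the raw counts of the groups overlapped.

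Compared per transcript length (CPM of each transcript per kilobase, summed per gene), *HOTAIRM1* was far above the rest. It had 107.5 and 130.0 CPM per kilobase in resistant libraries and 70.0 and 97.8 in wild-type libraries, between 17.0 and 40.0 times the next member in the same library. *HOXA11-AS* followed with 2.33 and 5.49 CPM per kilobase in resistant libraries and 4.12 and 2.80 in wild-type libraries, and *HOXA-AS2* with 2.69 and 1.89 in resistant libraries and 0.499 and 2.62 in wild-type libraries. These neighbours in the order overlapped in resistant libraries but not in wild-type libraries. *HOXA10-AS* had 1.14 and 1.30 CPM per kilobase in wild-type libraries, *HOTTIP* had 0.303 and 0.419 in resistant libraries and 0.532 and 0.788 in wild-type libraries, and *HOXA-AS3* had 0.328 and 0.327 in resistant libraries and 0.251 and 0.247 in wild-type libraries. In resistant libraries the levels of *HOTTIP* and *HOXA-AS3* overlapped, while in wild-type libraries *HOXA10-AS*, *HOTTIP* and *HOXA-AS3* followed each other without overlap.

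**Figure D4:**
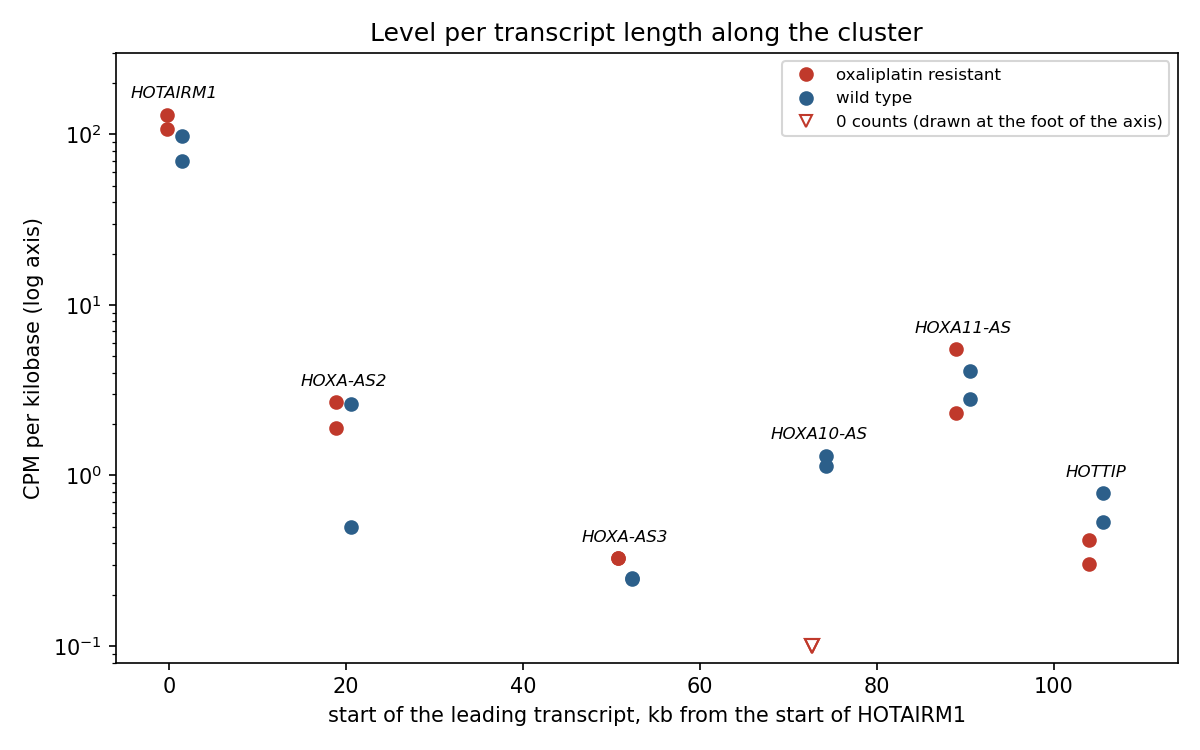
Level of each lncRNA gene in CPM per kilobase (log axis) against the start of its leading transcript in kb from the start of *HOTAIRM1*, with 1 point per library, the groups set slightly apart and a triangle at the foot of the axis for 0 counts. *HOTAIRM1*, at the left end, lies at 70.0 to 130.0 and the other 5 genes at or below 5.49 in every library, with *HOXA10-AS* at 0 in resistant libraries.

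Of the 39 transcripts 18, or 46.2%, had a count in at least 1 library, against 43.3% of the 10269 transcripts of other antisense genes. The counted transcripts had a median length of 1009 bases and those at 0 a median of 764 bases, against 668 and 589 bases for the other antisense genes. Counts were concentrated on 1 transcript in most genes, and the leading transcripts had 2 or 3 exons and a GC content between 53.4% and 60.9%.

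The other genes between *SKAP2* and *EVX1*, which flank the cluster, gave 16 with transcripts in the table, of which 7 passed the low-count filter. None of the 7 passed the edgeR test with adjustment, and 0 had an unadjusted p under 0.05. Each of the 7 had a log2 fold change below 0, with a median of -0.77, where 49.2% of all tested genes were below 0. In 4 of the 7 this sign rested on single libraries: the mean CPM was higher in resistant cells for *HOXA10*, *SKAP2* and *AC004080.6* without wild-type replicate 2, and for *HOXA6* without wild-type replicate 1 or without resistant replicate 2. *AC004080.6* was named after its values were seen. The 4 of highest level were *SKAP2*, a signalling adaptor gene (-0.24 ± 0.36), *HOXA6* (-0.12 ± 0.44), *HOXA9* (-0.77 ± 0.34) and *HOXA10* (-2.17 ± 1.29; SE, adjusted p between 0.666 and 0.963). Noncoding transcripts of *HOXA6* had 498 and 342 counts in resistant libraries and 449 and 256 in wild-type libraries, and those of *SKAP2* had 678 and 834 against 587 and 777. *HOXA10* owed its value to wild-type replicate 2, with 440 counts. The groups did not overlap in 3 of the 7, *HOXA9*, *HOXA13* and the lincRNA *AC004080.2*, each lower in resistant cells. Among all tested genes this held for 43.0%, with 20.5% lower. These 3 were named after their values were seen. *AC004080.2*, on the strand opposite *HOXA11-AS*, had 92 and 79 counts in resistant libraries and 142 and 130 in wild-type libraries (log2 fold change -1.05 ± 0.42, SE, edgeR adjusted p = 0.633). *HOXA13*, which patterns the digits, had 21 and 20 counts in resistant libraries and 20 and 31 in wild-type libraries. Its groups were free of overlap only after scaling to library size.

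**Figure D5:**
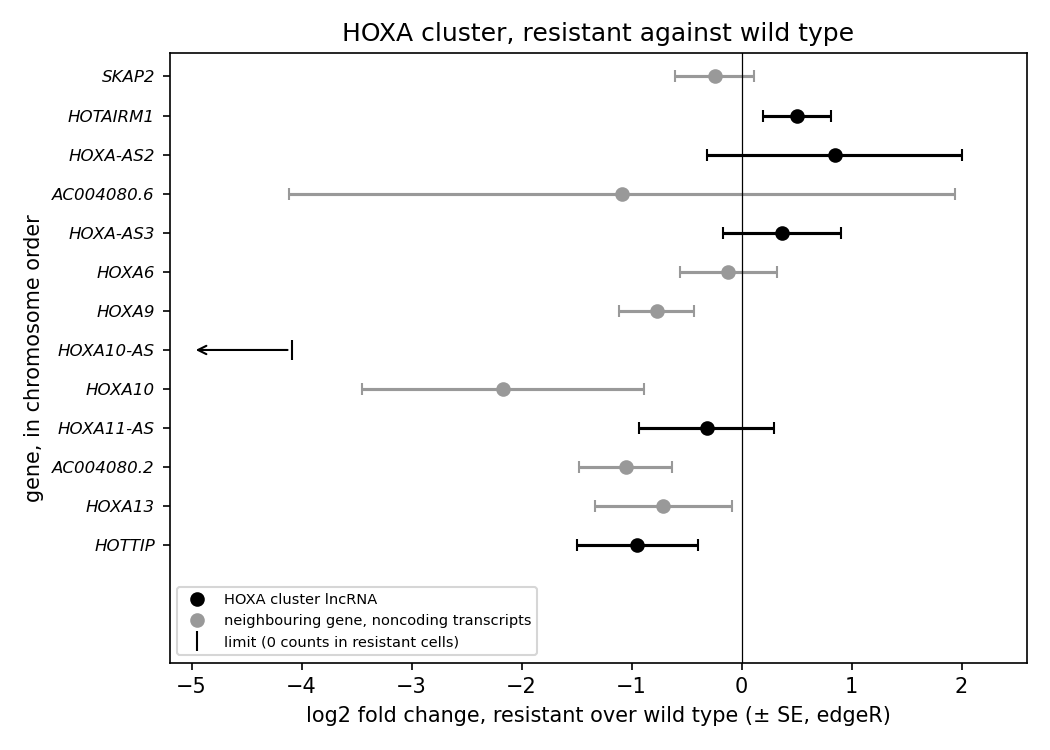
Log2 fold change of gene sums, resistant over wild type, with an SE derived from the edgeR F statistic, in chromosome order from top to bottom. The lncRNA genes followed here are black and tested neighbouring genes, among them the lincRNA *AC004080.2*, are grey. The arrow for *HOXA10-AS* starts at its limit of -4.09. None passed the adjusted test. *HOTAIRM1*, *HOXA-AS2* and *HOXA-AS3* lie above 0 and the other genes drawn lie below it, with the signs of *HOXA-AS2*, *HOXA11-AS*, *SKAP2*, *AC004080.6*, *HOXA6* and *HOXA10* resting on single libraries.

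Among 15 genes of the proteins that these lncRNAs or the cluster are known to work with (the MLL complex, Polycomb repressive complex 2, the insulator protein CTCF and retinoic acid receptors), 14 had transcripts in the table and 12 were tested. None passed adjustment, and 9 had a log2 fold change above 0, against 50.8% of all tested genes, and 3 below, with a median of 0.56. An unadjusted p under 0.05 was found for 1 of the 12, *EZH2*, named after its values were seen, against 8.67% of all tested genes. The 4 of highest level were *RXRA*, a partner of the retinoic acid receptors (log2 fold change 2.06 ± 0.81), *KMT2A*, the MLL methyltransferase gene (0.23 ± 0.38), *CTCF* (-0.21 ± 0.29) and *EED*, a Polycomb subunit gene (0.34 ± 0.27; SE, edgeR adjusted p between 0.630 and 0.910). Noncoding transcripts of *RXRA* had 9950 and 11292 counts in resistant libraries and 758 and 3035 in wild-type libraries, without overlap. *EZH2*, the Polycomb methyltransferase gene, had 826 and 698 counts in resistant libraries and 20 and 29 in wild-type libraries (edgeR adjusted p = 0.323). *RARB*, a direct target of retinoic acid, was at 0 in all 4 libraries, and *WDR5*, the partner of *HOTTIP*, is not analysed here.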

How the data were processed

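For 2 resistant and 2 wild-type libraries the authors deposited estimated counts for each transcript; all were already whole, so none were rounded, and their unit was judged from the values. Aligner, counting tool, annotation and strand setting: not given in the sources used here. Per the submitters' processing notes the build was mm9, a mouse assembly, while 103347 of 106179 identifiers are human Ensembl transcripts. GENCODE release 29 named 84072 of them, and counts were summed per gene over these.

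Gene sums and transcripts were tested on the whole table by quasi-likelihood in edgeR 4.0.16 (R 4.3.3), with TMM factors, the edgeR expression filter at a minimum count of 10, two-sided, Benjamini-Hochberg adjusted, threshold 0.05. Each SE of a log2 fold change is its absolute value divided by the square root of the edgeR F statistic. DESeq2 1.42.0 and limma-voom (limma 3.58.1) were alternatives, and the edgeR fit was tested on simulated data. There it called the changed genes where replicates were tight and called none at a spread near that of these gene sums, so a missed call here does not show that a gene did not differ. With 2 libraries against 2, no exact permutation test can reach that threshold, so none was used for single values.

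All 6 genes are named. Of their transcripts, the rule takes those with at least 5% of the gene's counts in a library, and from the neighbour and partner lists the 4 of highest mean CPM; the 3 patterns nearest to *HOTAIRM1* are also named. The members and lists were chosen with earlier results of these data known. Chi-square per transcript between library pairs was 259.5 to 322.9, so none were alike within sampling noise. Same-numbered libraries did not deviate together (r = -0.0189 across genes), and the labels state no pairing.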

Additional observations from a re-analysis of the deposited data

How the results depend on the processing

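edgeR called 0 genes and 0 transcripts under both other scalings, without the low-count filter, with a replicate block, and in every leave-one-out fit (0 to 0), as did limma-voom, while DESeq2 called 632 genes and 2261 transcripts. With the replicate block the log2 fold change of *HOTAIRM1* was 0.52 and that of *HOXA-AS2* 1.57, and no call changed. Of the 6 genes, *HOTAIRM1*, *HOXA-AS3*, *HOXA10-AS* and *HOTTIP* kept their direction in all 11 alternatives, *HOTAIRM1* between 0.30 and 0.75, and *HOXA10-AS* passed in DESeq2 alone (-8.12, adjusted p = 0.0232). Leaving out 1 library turned *HOXA-AS2* to -0.0046 (without wild-type replicate 1; range -0.0046 to 3.19) and *HOXA11-AS* to 0.07 (without resistant replicate 1) and 0.22 (without wild-type replicate 1; range -0.83 to 0.22). The log2 ratio of the summed cluster was 0.42, and 0.23 to 0.64 with 1 library left out, an alternative chosen after seeing the data, as was leaving out libraries for the neighbouring genes. Where 1 library is left alone in its group, it is assumed to vary like the other group. Library totals moved the median of all transcripts to 0.14, against 0.02 with TMM. Genes under 50 counts a library, here *HOXA-AS3*, *HOXA10-AS* and *HOTTIP*, are those most limited by depth.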
